A study of Mus musculus with 2 samples.

Results

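The interferon-responsive PARP genes described here are Parp8, Parp9, Parp10, Parp11, Parp12, Parp14 and Dtx3l. They were chosen by symbol in the target names of the deposited transcript tables and linked by gene identifier to the deposited gene tables, which gave 7 of 55536 annotated genes. The rule uses no measured value, although the set was proposed with earlier results of these data known. The data are 2 libraries of ribosomal RNA-depleted total RNA from a nuclear preparation of bone marrow-derived macrophages, primary cells of C57BL/6J mice. Both libraries belong to a single group, which had 100 ng/ml Lipid A for 12 hours, 12 hours without it, and a further 60 min at 100 ng/ml. Replicate 1 was made from 1 µg of RNA and replicate 2 from 500 ng. The labels describe the fraction as nucleoplasmic in one field and nuclear in another, call the libraries biological replicates and give them the same donor identifier. Separate animals are not stated, so part of the spread between the libraries may be technical. Cells without Lipid A, or stimulated once, were not analysed here. The response of these genes to Lipid A or to interferon was therefore not measured, and every value below is a level or a difference between the replicates, with no test.

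PARP proteins are ADP-ribosyltransferases, which take ADP-ribose from NAD and attach it to proteins or nucleic acids, as chains or, for most members of the family, as single units. Several of the mono-ADP-ribosylating members are known as interferon-stimulated genes with roles in antiviral defence. Lipid A activates TLR4, and in macrophages TLR4 signalling through TRIF leads to the production of interferon-beta, which acts back on the cells through the type I interferon receptor.

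Expected counts, the estimates that divide reads among transcripts, totalled 23630328 on annotated genes in replicate 1 and 15687634 in replicate 2. All 8 macrophage markers (Lyz2, Csf1r, Adgre1, Cd68, Itgam, Spi1, Mertk and Fcgr1) reached 10 TPM in both libraries. TPM is the length-corrected share of all transcripts, scaled to a fixed total. None of 21 markers of neutrophils, lymphocytes, dendritic cells, erythroid, stromal and endothelial cells reached 1 TPM in both, and their summed TPM was 5.19 in replicate 1 and 2.35 in replicate 2. With the kallisto-format tables, called the second quantifier below, the sums were 3.71 and 8.09 TPM, and 1 marker, the endothelial gene Pecam1, passed 1 TPM in both, at 1.59 and 5.29 TPM. Of the neutrophil markers, Elane was at 0 counts in both libraries. The others had few counts in replicates 1 and 2: S100a9 9 and 1, S100a8 4 and 2, Mpo 3 and 0, and Ly6g 0 and 1. The T cell markers Cd3e and Cd3g were at 0 counts in both libraries. With the second quantifier Cd3e was at 0.0162 and 0.0125 TPM and Cd3g at 0.0920 and 0.137 TPM. TPM itself was shifted between the libraries, with a log2 ratio of replicate 2 over replicate 1 of -0.47 for the median nuclear protein-coding gene, and this shift enters every SD of TPM below. In bulk RNA, fewer cells of a type and less RNA per cell cannot be told apart.

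Parp11 is shown first by sequence because its annotated starts lie in separate windows that differ in the motifs they hold. RefSeq promoter windows (GRCm38.p6, 250 bases before to 50 bases after a start) matched 4 of the 7 genes, in 5 windows. Capitals mark matches to the motifs searched on both strands: the core of the interferon-stimulated response element (GAAA, any 2 bases, GAAA), the gamma-activated site bound by STAT dimers (TTCNNNGAA) and a kappaB-like motif (GGGA, any 2 bases, TTCC).
Parp11 upstream window, chr6:127446590-127446889, forward strand: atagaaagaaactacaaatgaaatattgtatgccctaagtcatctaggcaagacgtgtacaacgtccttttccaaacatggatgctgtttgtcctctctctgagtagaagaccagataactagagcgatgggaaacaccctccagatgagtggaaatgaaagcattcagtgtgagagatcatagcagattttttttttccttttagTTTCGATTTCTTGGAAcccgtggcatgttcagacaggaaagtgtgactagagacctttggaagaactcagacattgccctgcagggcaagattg
Parp11 downstream window, chr6:127453377-127453676, forward strand: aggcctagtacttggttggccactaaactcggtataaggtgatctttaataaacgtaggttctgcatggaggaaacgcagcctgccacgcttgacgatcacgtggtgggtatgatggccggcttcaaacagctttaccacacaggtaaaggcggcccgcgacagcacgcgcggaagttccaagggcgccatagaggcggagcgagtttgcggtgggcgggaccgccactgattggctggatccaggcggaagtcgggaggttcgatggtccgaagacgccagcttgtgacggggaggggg
Dtx3l window, chr16:35938978-35939277, reverse strand: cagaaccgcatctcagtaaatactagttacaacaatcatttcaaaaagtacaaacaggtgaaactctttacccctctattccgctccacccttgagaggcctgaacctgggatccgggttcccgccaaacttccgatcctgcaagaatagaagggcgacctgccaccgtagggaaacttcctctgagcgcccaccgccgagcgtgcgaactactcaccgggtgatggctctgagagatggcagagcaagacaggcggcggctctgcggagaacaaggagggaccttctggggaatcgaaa
The upstream Parp11 window held TTTCGATTTC, a match to the response element on the opposite strand, beginning 44 bases before the start. It also held TTCTTGGAA, a match to the gamma-activated site, beginning 37 bases before the start, and these matches share 3 bases. None of the 3 motifs matched in the downstream Parp11 window, or in those of Dtx3l, Parp12 and Parp8. Among all 32851 windows, the response element core was in 3.44%, the gamma-activated site in 8.30% and the kappaB-like motif in 1.47%. In 25 windows of listed interferon-stimulated genes the counts were 14, 3 and 3. A match describes letters only, and its absence says only that these letters are not in the window.

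All 7 genes reached 10 TPM in both libraries, as did 14.8% of 22015 nuclear protein-coding genes. Their summed level was 1117 TPM in replicate 1 and reached 636.5 TPM in replicate 2. Parp14 alone made up 57.5% and 61.1% of those sums. The highest gene lay 19.6-fold above the lowest in replicate 1 and 15.2-fold in replicate 2.

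Parp14, a mono-ADP-ribosyltransferase with macrodomains that bind ADP-ribose and known as a cofactor of STAT6, was the highest of the genes. Replicate 1 had 643 TPM and replicate 2 had 389 TPM, or 516 ± 179 TPM (SD, n = 2). It ranked 37 and 41 among nuclear protein-coding genes in the respective libraries. The gene (ENSMUSG00000034422.14) lies on mm10 at chr16:35832874-35871544, on the reverse strand. It drew 95367 expected counts in replicate 1, 0.404% of the total (95% Wilson interval 0.401 to 0.406), and 52244 in replicate 2, 0.333% (0.330 to 0.336). These intervals cover counting error only, and they lie apart.

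Parp9 and Dtx3l encode partners: PARP9 binds the E3 ubiquitin ligase DTX3L, a deltex family protein, to form a heterodimer. Parp9 (ENSMUSG00000022906.15, chr16:35938470-35972605, forward strand) had 128 TPM in replicate 1 against 72.4 TPM in replicate 2. Dtx3l (ENSMUSG00000049502.17, chr16:35926511-35939151, reverse strand) was at 71.6 and 44.9 TPM. The means were 100.025 ± 39.01 TPM (SD, n = 2) for Parp9 and 58.2 ± 18.9 TPM (SD, n = 2) for Dtx3l. Parp9 was above Dtx3l within each library. With the second quantifier it was so too, at 63.4 against 21.7 TPM in replicate 1 and 63.2 against 24.96 TPM in replicate 2.

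Parp10 and Parp12 encode mono-ADP-ribosyltransferases, of which PARP12 carries CCCH zinc fingers and is known to restrict alphaviruses. Parp10 (ENSMUSG00000063268.12, chr15:76231174-76243441, reverse strand) had 104 TPM in replicate 1 against 34.8 TPM in replicate 2, or 69.5 ± 49.1 TPM (SD, n = 2). Parp12 (ENSMUSG00000038507.6, chr6:39086410-39118349, reverse strand) had 86.0 TPM in replicate 1 against 41.4 TPM in replicate 2, or 63.7 ± 31.5 TPM (SD, n = 2). Of the 7 genes these had the widest relative spread by TPM of the gene tables, with coefficients of variation of 70.7% and 49.5%. Their ranges overlapped each other.

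Parp11, a mono-ADP-ribosyltransferase of the nuclear envelope, and Parp8, whose function is less well known, were the lowest by TPM of the gene tables. With the second quantifier Parp8 was again the lowest in both libraries. Parp11, at 28.0 and 27.4 TPM there, was above Dtx3l in both and above Parp10 and Parp12 in replicate 2. Parp11 (ENSMUSG00000037997.12, chr6:127446840-127494261, forward strand) had 52.4 TPM in replicate 1 against 28.4 TPM in replicate 2, or 40.4 ± 17.0 TPM (SD, n = 2). Parp8 (ENSMUSG00000021725.9, chr13:116854820-117025537, reverse strand) was at 32.8 and 25.7 TPM, or 29.2 ± 5.05 TPM (SD, n = 2). Parp8 had the longest span, at 170718 bases, and by TPM of the gene tables the smallest spread, at a coefficient of variation of 17.3%. That place in the spread did not hold with the second quantifier, where Parp8 was at 11.9 and 15.7 TPM. Parp12, at 30.6 and 26.6 TPM, and Parp9, at 63.4 and 63.2 TPM, differed less in proportion there.

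**Figure D1:**
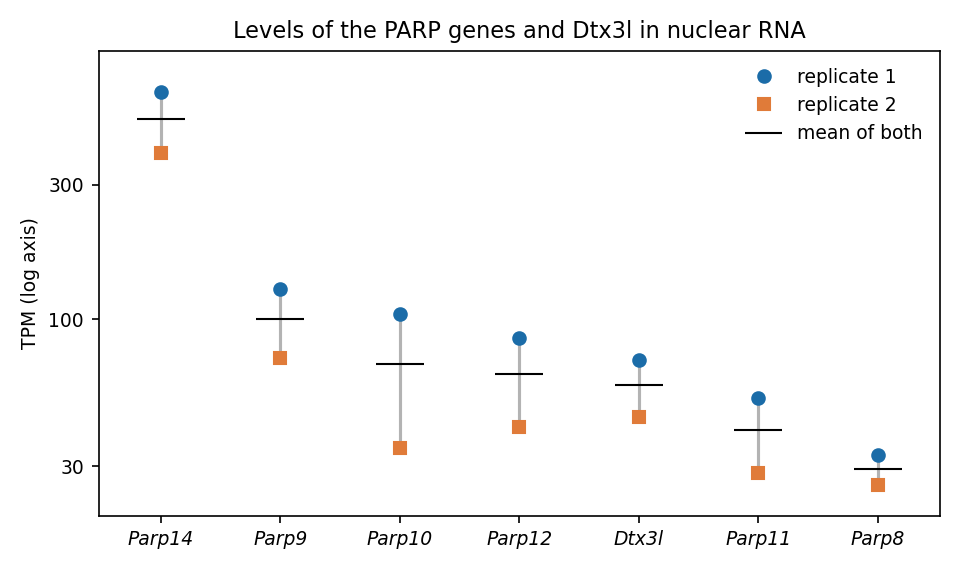
TPM (log axis) of each gene in replicate 1 (circles) and replicate 2 (squares), with the mean of both as a bar. Parp14 stands above the others at 643 and 389 TPM, and every gene is lower in replicate 2 by the TPM of the gene tables.

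The order of mean levels was Parp14, Parp9, Parp10, Parp12, Dtx3l, Parp11 and Parp8. Of the 6 neighbouring pairs in that order, 3 had separate deposited TPM intervals in the same direction in both libraries: Parp14 over Parp9, Parp9 over Parp10 and Dtx3l over Parp11. The level of these intervals is not stated, and they describe the estimate within a library. Parp14 was 5.04-fold and 5.37-fold above Parp9 in the respective libraries, and 3.13-fold and 3.35-fold with the second quantifier. Dtx3l over Parp11 turned with that quantifier in both libraries, to 21.7 against 28.0 TPM in replicate 1 and 24.96 against 27.4 TPM in replicate 2. Parp10 was 1.21-fold above Parp12 in replicate 1 but 0.841-fold in replicate 2, and Parp12 over Dtx3l likewise turned from 1.20-fold to 0.921-fold, but was 1.41-fold and 1.07-fold with the second quantifier. Parp11 and Parp8 were 1.60-fold apart in replicate 1, and their intervals overlapped in replicate 2. The order between Parp9 and Parp8 therefore differed between libraries and quantifiers. By point estimates Parp14 and Parp9 were first and next in each, and Parp8 was last.

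Every one of the 7 genes had a lower TPM in replicate 2 with separate deposited intervals, which held for 39.4% of 11125 nuclear protein-coding genes. That direction turned for 3 of the 7 with the second quantifier, whose TPM in replicates 1 and 2 was 198 and 212 for Parp14, 21.7 and 24.96 for Dtx3l, and 11.9 and 15.7 for Parp8. The library-wide shift of TPM turned as well. Summed over nuclear protein-coding genes, TPM was 281404 and 188039 in the gene tables and 109273 and 133917 with the second quantifier. After scaling of expected counts by TMM and centring on the median nuclear protein-coding gene, 6 of 7 were lower in replicate 2, against 50.0% of those 11125 genes and 47.8% of 14052 genes of all classes. With second quantifier counts, scaled and centred likewise, all 7 were lower, at a median log2 ratio of replicate 2 over replicate 1 of -0.45. By expected counts, the median relative log2 ratio, replicate 2 over replicate 1, was -0.33. Parp10 had a relative log2 ratio of -1.002 and was the only one of the 7 past a 2-fold difference, and at -0.99 it no longer passed when the filter was raised to a mean of 100 expected counts. That fold was passed by 8.63% of 14052 genes, 3.97% in the direction of Parp10 and 4.66% in the other. Parp12 had a relative log2 ratio of -0.69, Parp11 of -0.38, Parp9 of -0.33, Parp14 of -0.23 and Dtx3l of -0.20. Parp8 was on the other side of 0, at 0.13, but at -0.01 with the second quantifier and -0.23 with no filter on low counts. Beside these, the 8 macrophage markers had a median relative log2 ratio of -0.37, with all 8 lower in replicate 2, and 28 interferon-stimulated genes had -0.40, with 23 lower. RNA input and the difference in markers moved with the replicate, and their part in it was not tested.

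**Figure D2:**
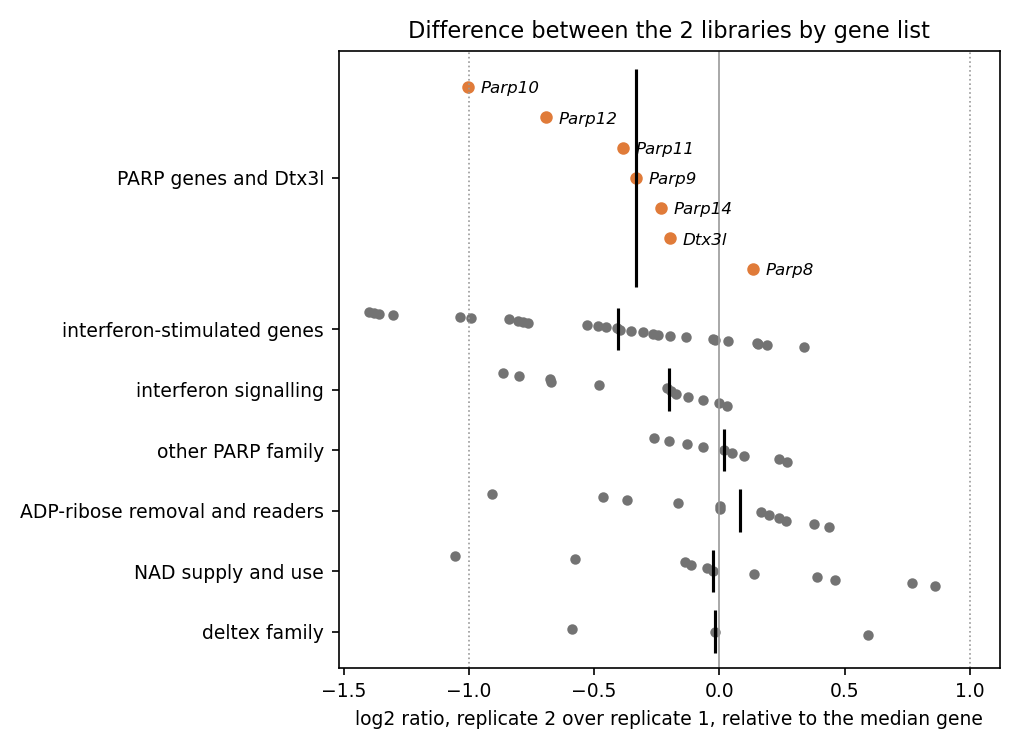
Log2 ratio of replicate 2 over replicate 1, centred on the median nuclear protein-coding gene, for each gene (points) and list (rows), with the list median as a bar and 2-fold as dotted lines. Parp10 lies at -1.002 and Parp8 at 0.13, and the interferon-stimulated genes have a median of -0.40.

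Parp14, Dtx3l and Parp9 lie in a cluster of 139732 bases at chr16:35832874-35972605. Dtx3l and Parp9 stand head to head on opposite strands, with annotated starts 681 bases apart. Their spans share 682 bases, of which 458 are exonic in both. The Dtx3l window printed above also contains the Parp9 starts at 35939011 to 35939061 but not the start of Parp9-203 at 35938470. A gap of 54966 bases separates Dtx3l from Parp14 and holds the processed pseudogenes Gm41467 and Gm10237, both listed at 0 TPM. Since the use of strand is not given in the sources used here, reads from the shared exonic bases may have been divided between Parp9 and Dtx3l.

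**Figure D3:**
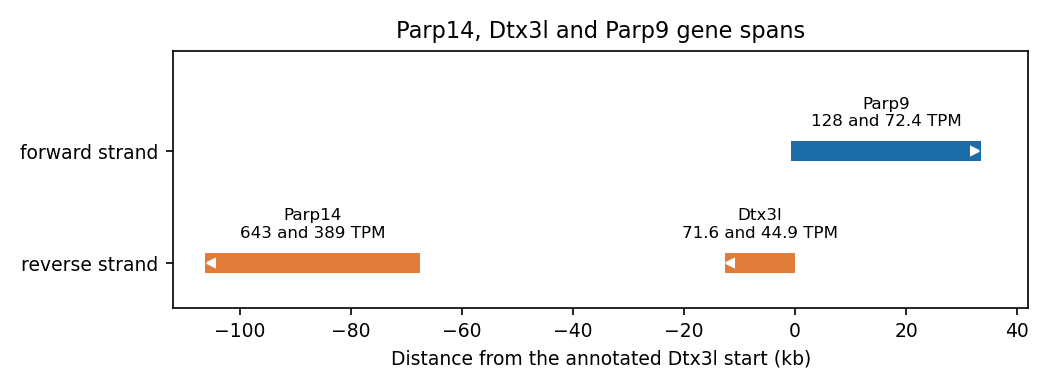
Gene spans of Parp14, Dtx3l and Parp9 by strand against distance from the annotated Dtx3l start (kb), to scale, with the TPM of replicates 1 and 2 above each. Dtx3l and Parp9 meet at their starts, and Parp14 lies 54966 bases from Dtx3l.

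Other annotated genes overlap members. Gm49730, an unverified transcript on the same strand inside Parp14, shares 110 exonic bases with it and was at 58.6 and 36.5 TPM in replicates 1 and 2. Plec, the plectin gene, shares 205 exonic bases with Parp10 on the same strand and was at 53.5 and 37.5 TPM. Of the Parp10 isoforms only Parp10-205 reaches into Plec, so the counts of that isoform are uncertain. The remaining neighbours were low or shared no exonic base. Gm43633 within Parp11 was at 5.21 and 2.08 TPM. The antisense gene 4930599N23Rik, whose start lies 124 bases from that of Parp12, was at 4.21 and 1.67 TPM. Gm15564, antisense to Parp9, was at 0 counts in both libraries but at 2.57 and 1.72 TPM with the second quantifier.

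Transcript tables resolved the genes into isoforms. Coding isoforms held from 43.9% (Parp8) to 100% (Dtx3l) of a gene's TPM in replicate 1, and from 42.3% to 100% in replicate 2, again for Parp8 and Dtx3l. In 6 genes the annotation holds isoforms of the retained-intron class, and these took a median of 31.3% of the gene's TPM in replicate 1 and 34.5% in replicate 2. The comparison set was 2291 nuclear protein-coding genes with such an isoform and 10 TPM or more in both libraries, the PARP genes included. Its median was 23.1% (interquartile range 11.0 to 37.5) and 25.6% (11.9 to 41.8), so the medians of the PARP genes lay inside the spread of that set. By transcript expected counts, which are not corrected for length and so give long isoforms more weight, the medians were 15.5% and 14.7%, against 12.0% and 14.1%.

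By TPM of the first tables, Parp8 had the largest retained-intron share, at 53.9% of TPM in replicate 1 and 55.8% in replicate 2. Parp11 followed at 45.9% and 41.0%, Parp14 at 34.6% and 33.1%, and Parp12 at 28.0% and 35.9%. Parp9 had 24.7% and 24.0%, and Parp10 had 16.4% and 15.4%. Parp12 in replicate 2 lay above Parp14. This order depended on the quantifier. With the second one Parp11 had 50.2% and 46.9% and Parp8 46.4% and 50.6%, so neither was higher in both libraries. Parp10 had 31.3% and 30.7%, above Parp9 at 25.1% and 21.9%. By transcript expected counts Parp10 had 14.6% in replicate 1, above Parp9 at 11.0% and Parp12 at 9.34%.

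**Figure D4:**
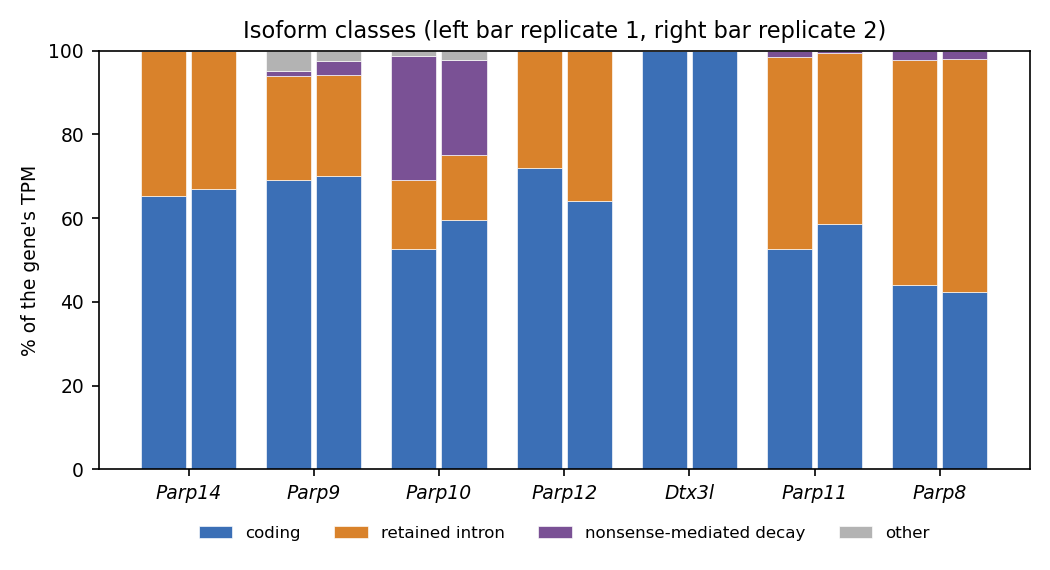
Share of each gene's TPM (percent) by annotated isoform class in replicates 1 and 2. Retained-intron isoforms hold 53.9% and 55.8% in Parp8, and Dtx3l has coding isoforms only.

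The intron ends below mark the retained-intron isoforms that held 20% or more of a gene's TPM in a library. Each shows exon and intron bases around a splice site that the isoform reads through, from the GENCODE M21 transcripts, with the intron's GT or AG in capitals.
Parp14-203, 5′ end of the intron: gacagcaaagGTcggtgtctcagccggcca
Parp14-203, 3′ end of the intron: aatttgttttgcttttgaAGtgttagacac
Parp8-202, 5′ end of the intron: gccccaaaagGTatttatgtgtatagagtt
Parp12-202, 3′ end of the intron: gagatattttctcattgtAGaagatcactc
Parp11-210, 5′ end of the intron: gactttgcagGTatgttttcccgcctagtc
Parp14-203 keeps a whole intron of 1665 bases at chr16:35858765-35860429 and had 148 TPM in replicate 1 against 84.8 TPM in replicate 2. The coding isoform Parp14-201 was at 420.26 and 260.08 TPM. Parp8-202 ends 3106 bases into an intron of 85393 bases at chr13:116938782-117024174, and was at 14.8 and 12.3 TPM, above the coding isoform Parp8-203 at 12.4 and 9.25 TPM. Both results describe nuclear RNA, in which unspliced precursors can be assigned to such isoforms, and the part of precursors was not tested. Parp12-202 covers 764 of the 975 bases of the intron at chr6:39090330-39091304 and was at 24.1 and 14.9 TPM, against 61.9 and 26.5 TPM for the coding isoform Parp12-201. Parp11-210 is a single exon covering 1617 of 2567 bases of the intron at chr6:127471669-127474235, at 10.95 and 5.41 TPM.

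By point estimates, the order of the upstream and downstream Parp11 starts differed between the libraries. Parp11-202, the isoform that begins at the upstream window with the motif matches, had 14.4 TPM in replicate 1 against 9.87 TPM in replicate 2, or 27.6% and 34.8% of the gene. The 5 isoforms that begin at 127453620 to 127453723, by the downstream window, summed to 16.7 and 8.93 TPM, or 31.8% and 31.4%. The downstream group was thus higher in replicate 1 and the upstream isoform in replicate 2, by small margins. The deposited interval of Parp11-202 was 11.9 to 16.2 TPM in replicate 1 and 7.82 to 11.1 TPM in replicate 2. The downstream sum has no interval, so this order is uncertain. With the second quantifier the downstream group was higher in both, at 8.09 against 6.28 TPM in replicate 1 and 8.22 against 7.06 TPM in replicate 2. Parp11-204, which begins between the windows at 127449263, was at 0 TPM in both libraries by the first tables. The second quantifier put Parp11-204 at 5.37 and 5.16 TPM. Of the downstream isoforms, Parp11-201 passed the 20% rule, at 11.4 and 4.98 TPM, or 21.7% and 17.5% of the gene. It was at 1.41 and 0.66 TPM with the second quantifier, or 5.04% and 2.43%.

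For Parp9, 4 isoforms that begin at 35939011 to 35939061 held 69.8% and 73.1% of TPM, led by Parp9-201 at 56.5 and 33.3 TPM. Parp9-203, which begins further into Dtx3l at 35938470, held 24.9% and 24.2%, at 31.8 and 17.6 TPM. The quantifiers differed on Parp9-207, an isoform annotated for nonsense-mediated decay, the pathway that removes transcripts with early stop codons. It was at 0.55 and 0.21 TPM in the first tables and at 13.2 and 13.6 TPM with the second quantifier, whose coding share of Parp9 was 41.9% and 43.3%.

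Parp10 had its coding isoforms Parp10-201 at 36.2 and 13.3 TPM and Parp10-202 at 18.8 and 7.44 TPM. Parp10-205, annotated for nonsense-mediated decay, had 30.8 TPM in replicate 1 against 7.93 TPM in replicate 2. Its share of the gene, 29.6% and 22.8%, was 14.8% and 9.13% with the second quantifier. Parp10-205 is the isoform that shares exonic bases with Plec, so its level is uncertain. The level of Parp10 and its place in the order of means include this isoform. Dtx3l was carried by Dtx3l-201 at 69.9 and 43.8 TPM, with Dtx3l-202 at 1.69 and 1.10 TPM.

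Most other genes of ADP-ribosylation had lower levels than the 7 genes, with Zc3hav1 among the exceptions. Of 10 other PARP family genes, 6 reached 10 TPM in both libraries and none reached 100 TPM in both. They were led by Zc3hav1, the zinc-finger antiviral protein, at 127 and 90.7 TPM in replicates 1 and 2. Tiparp, a target of the aryl hydrocarbon receptor, was at 34.2 and 29.5 TPM, and Parp3, which acts in DNA repair, at 27.1 and 15.3 TPM. Their median relative log2 ratio between replicates was 0.02, with 4 of 9 counted genes lower in replicate 2.

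Among 15 genes listed for removal and reading of ADP-ribose, 1 reached 10 TPM in both libraries, at list medians of 2.86 and 2.09 TPM. That gene was Zup1, at 139.96 and 99.4 TPM, which encodes a deubiquitinating enzyme and not an eraser or reader of ADP-ribose, so its place on the list is an error of the list. Parg, which cuts ADP-ribose chains, was at 14.3 and 8.46 TPM and Nudt9, an ADP-ribose pyrophosphatase, at 12.3 and 8.94 TPM. Adprhl1 had 0 counts in replicate 1 and 1 in replicate 2. Over both lists, 7 of 25 genes reached 10 TPM in both libraries, and 6 of 24 without Zup1.

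Of 13 genes of NAD supply and use, 3 reached 10 TPM in both libraries. Nampt, the rate-limiting enzyme of NAD salvage, was at 91.3 and 55.8 TPM, the NAD kinase gene Nadk at 48.2 and 35.5 TPM, and Cd38, which consumes NAD, at 35.7 and 16.7 TPM. For Nmnat2 and Sarm1 each library gave 0 counts, for which counting error alone allows up to 0.0754 and 0.0540 TPM in replicate 2. The second quantifier gave 0.102 and 0.123 TPM there, above those limits. In the deltex family, Dtx3l stood above Dtx3 (10.3 and 11.1 TPM), Dtx4 (11.9 and 8.43 TPM) and Dtx2 (7.97 and 3.28 TPM). Dtx1 gave 0 counts too, with a limit of 0.0808 TPM in replicate 2, but was at 0.572 and 0.579 TPM with the second quantifier.

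**Figure D5:**
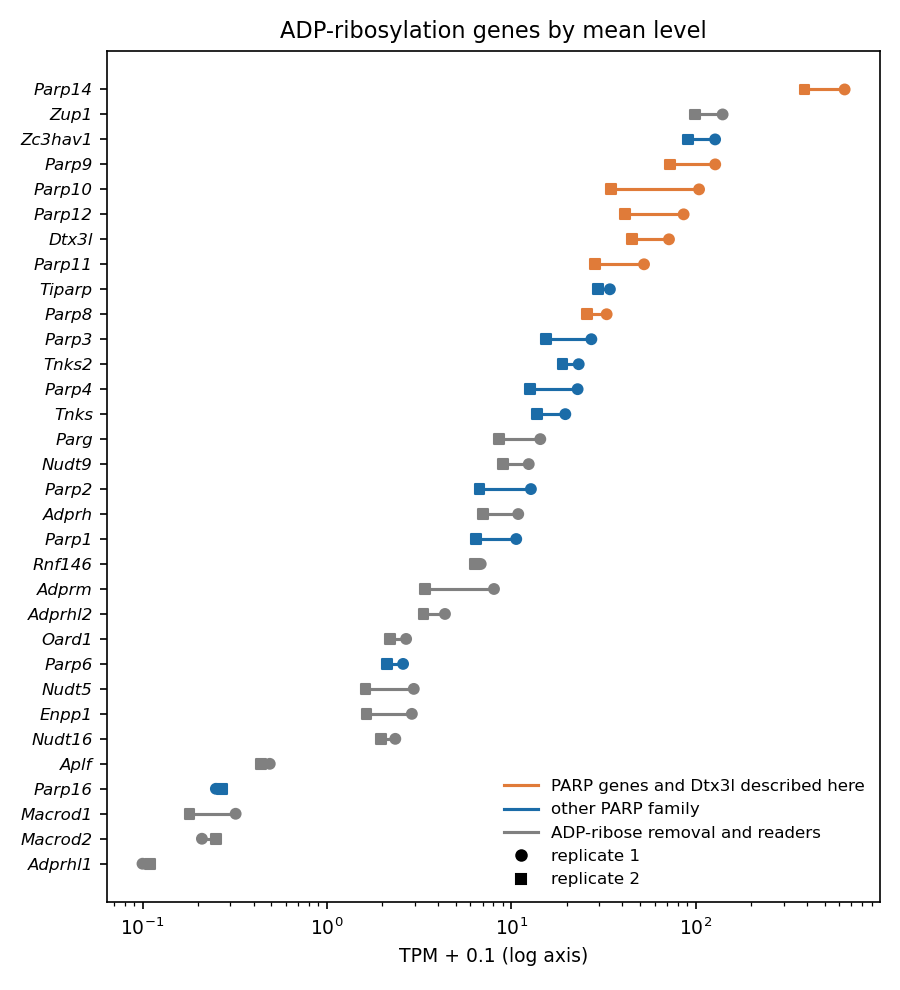
TPM + 0.1 (log axis) of the 7 genes, the other PARP family and the genes for removal and reading of ADP-ribose, in replicate 1 (circles) and replicate 2 (squares). The 7 genes lie between 25.7 and 643 TPM, and genes for removal and reading of ADP-ribose have list medians of 2.86 and 2.09 TPM.

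The interferon pathway itself was represented throughout. All 12 genes of interferon signalling reached 10 TPM in both libraries, among them the transcription factor genes Irf7 (533 and 208 TPM) and Irf1 (454 and 226 TPM). The 28 interferon-stimulated genes were likewise above 10 TPM in both libraries, with medians of 197 and 109.8 TPM against 86.0 and 41.4 TPM for the 7 genes. The antiviral genes Rsad2 (1552 and 623 TPM) and Ifit2 (1023 and 422 TPM) and the chemokine gene Cxcl10 (893 and 375 TPM) were highest by the mean of both libraries, although Oasl2 was above Ifit2 and Cxcl10 in replicate 2, at 511 TPM. Parp14 was above the median of that list in both libraries, and Parp9 was below it.

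By distance over log2(TPM + 0.1) in the 2 libraries, the nearest of 82 listed genes were interferon-stimulated for 4 of the 7, and 28 of the 82 candidates belong to that list. Many of the other candidates were too low to be nearest. The medians were 2.86 and 2.09 TPM for removal and reading of ADP-ribose, and 2.47 and 0.85 TPM for NAD supply and use. The count of 4 is therefore no sign of an excess over that share. Parp12 was nearest to Oas1a (distance 0.10), Parp9 to Ifi44 (0.12), Parp10 to Usp18 (0.33) and Parp14 to Oasl2 (0.40). Parp8 was nearest to Irf9 (0.10) and Dtx3l to Ifnar1 (0.23), both of interferon signalling, and Parp11 to Nadk (0.34). With 2 libraries, closeness means only a similar level in each.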

How the data were processed

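Each of the 2 libraries has gene and transcript tables in RSEM format, made by the authors, and a kallisto-format transcript table, called the second quantifier here. Per the deposited readme files, the build is mm10 with GENCODE M21, the RSEM tables come from transcriptome alignments and the kallisto table from reads. Versions of the tools and strand handling: not given in the sources used here. Expected counts, TPM and TPM interval bounds of unstated level are deposited, per the file headers. Levels are the deposited TPM. Expected counts were rounded and scaled by TMM in edgeR 4.0.16 (R 4.3.3; prior count 0.5), or by DESeq2 1.42.0 size factors, keeping 14052 genes whose mean count was at least 10. Ratios were centred on the median nuclear protein-coding gene. With 1 group, no test was made. Tested on simulated data (14052 genes, 200 of them altered 4-fold), the ratio step placed 96.5% of altered and 6.12% of unaltered genes past 2-fold. The simulated spread was a set value not fitted to these data, so both rates hold for that setting only. Rows outside the annotation held 1.19% and 0.215% of expected counts and were left out. A count of 0 allows 3 counts.

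The members and lists were chosen with earlier results of these data known. Genes named are all members, the 3 highest of each list and at most 3 per list under 0.1 TPM in each library. Also named are the nearest listed gene, isoforms of 20% or more, and overlapping genes. Markers of other cells are given by sums, with some named beside them. Some genes under this rule are not reported here. Python 3.11.15 served for the remaining steps, with pandas 2.3.3, numpy 2.4.6 and scipy 1.17.1. Alternatives covered the quantifier, scaling, pseudocount, filter, floor and each library alone.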

Additional observations from a re-analysis of the deposited data

How the results depend on the processing

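All 7 genes stayed at 10 TPM or more with the posterior mean and the second quantifier. Rescaling TPM to nuclear protein-coding genes only raised every value of these genes, and each library alone is a weaker condition than both. Neither setting could have lowered the count of 7, so they are no check on it. The count of 25 ADP-ribosylation genes at 10 TPM or more in both libraries, 7, became 5 with the second quantifier and 15 with rescaled TPM. It was 20 with a floor of 1 TPM, 13 with a floor of 5 TPM and 7 to 12 with each library alone. Without Zup1, an alternative chosen after seeing the data, it was 6. The median relative log2 ratio of the 7 genes, -0.33, became -0.70 with no filter on low counts. Genes with 0 counts in both libraries then take a ratio set by the scaling of the libraries and move the centre. The count of the 7 genes over 2-fold apart, 1, became 2 with no filter, beside 12.2% of 55536 genes of all classes. It was 0 with a mean of 100 or more counts, beside 3.04% of 8676 genes. At 1.5-fold it was 2 (Parp10 and Parp12), beside 23.7% of 14052 genes. The retained-intron share, a median of 32.9% over both libraries, was 36.4% with the second quantifier, 15.1% by transcript expected counts, and 31.3% to 34.5% with each library alone. With the second quantifier the median of the 2291 comparison genes was 27.3% in replicate 1 and 30.1% in replicate 2. No paired analysis was possible because there is 1 group and no test. With 2 libraries, depth and the spread between them limit differences among the middle genes.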
